A study of Mus musculus with 3 samples.

Results

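CD4+ T cells from the kidneys and the spleens of the same 3 mice were compared. The mice carried loxP-flanked Ezh2 on both alleles, had no Cre, and are labelled WT. They were MRL/lpr, a lupus-prone strain whose lpr mutation disables Fas, with swollen lymphoid organs and inflamed kidneys, and mice of both genotypes of the study had oral tamoxifen at 300 mg/kg in alternate weeks. Dosing began at 10 weeks of age (a preventative schedule) or at 14 weeks (a therapeutic one) and ended at 24 weeks. Which of these schedules a given mouse followed is not stated. The KO mice, used below only for a side comparison, carried in addition a tamoxifen-inducible Cre (CreERT2) under the Cd4 promoter, from a line backcrossed to MRL/lpr for 6 generations. Cells were stained for CD3, TCR beta, CD4 and CD8a, sorted as CD4+ T cells, and labelled with an antibody tag particular to 1 organ of 1 mouse.

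The samples are blocks of cell barcodes on the first day of the tag key, in which each organ of each mouse has its own block. A block was taken when its leading antibody tag was given by the key to the kidney or the spleen of a WT mouse, which left 6 of the 18 blocks of the series. They hold 4043 kidney cells (1629, 1467 and 947 in mice WT1, WT2 and WT3) and 5454 spleen cells (2386, 922 and 2146), together 9497 of 30891 barcodes. The tags are shown because they alone carry the identity of organ and mouse. Each is printed 5′ to 3′, in the order in which the key lists them, and a tag number was joined to its mouse and organ through that order, so the labels of mouse and organ rest on it.
HTO3, kidney of WT1: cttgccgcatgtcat
HTO4, kidney of WT2: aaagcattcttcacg
HTO5, kidney of WT3: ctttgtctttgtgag
HTO8, spleen of WT1: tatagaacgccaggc
HTO9, spleen of WT2: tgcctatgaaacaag
HTO10, spleen of WT3: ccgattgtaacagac
At least 99.5% of the cells of each block were led by its own tag. No barcode was shared between any of the 15 pairs of WT blocks.

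A CD4+ T cell that leaves the blood for an inflamed organ loses the receptors that return it to lymphoid tissue and takes up receptors and adhesion molecules that hold it in place. In the kidney it also meets TGF-beta, prostaglandins, catecholamines and adenosine. TGF-beta signals through Smad proteins and induces its own inhibitors, and the last 3 signal through receptors that change cyclic AMP, with the transcription factors CREB and CREM at the end of that pathway. In lupus-prone mice, T cells that infiltrate the kidney have been described with features of exhaustion.

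The organ was confounded with the preparation. Kidneys were digested with enzymes in a heated dissociator while spleens were pressed through a strainer, and each organ of each mouse was a block of its own, so organ, preparation and library cannot be told apart in what follows. Per block, 3473946 to 10102765 UMIs (unique molecular identifiers, which count molecules) were summed, and the median cell held 3187 to 3520 UMIs in kidney and 3210.5 to 3433 in spleen. Levels below are CPM, the UMI count of a gene over a block scaled to a common library total with TMM factors, and are given in the order WT1, WT2, WT3. In such sums fewer cells with a transcript and less of it per cell cannot be told apart. The cells had the identity the sort asked for: Cd4 stood at 397, 337 and 340.5 CPM in kidney and 306, 347 and 468 in spleen, and Cd3e at 1428, 1405 and 1228 and 1569, 1332 and 1467. Ezh2 was present in every block, at 91.6, 161 and 134 CPM in kidney and 70.5, 169 and 157 in spleen (log2 fold change 0.06 ± 0.12 SE, adjusted p = 0.76). Transcripts of other cells differed between the blocks. The summed level of 16 kidney tubule markers was 294, 125 and 1661 CPM in kidney and 173, 6.66 and 59.0 in spleen, that of 12 B and plasma cell markers was 1081, 376 and 337 in kidney and 708, 357 and 339 in spleen, that of 18 myeloid markers ranged from 378 to 835 in kidney and from 536 to 721 in spleen, and that of 9 stromal markers stayed below 1 CPM in every block. Aqp2 of the tubule list, Emcn of the endothelial list and Col3a1, Rgs5 and Sparc of the stromal list were at 0 in all 6 blocks. Igkc, an immunoglobulin transcript that T cells do not make, stood at 287, 360.4 and 272 CPM in kidney and 364, 336 and 306 in spleen.

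Of 11182 genes tested, 2700 (24.1%) differed between the organs at an adjusted p under 0.05 (edgeR quasi-likelihood test with mouse as a block, Benjamini-Hochberg adjustment). Of these, 1549 (13.9%) were higher in kidney and 1151 (10.3%) in spleen. Independent of any test, the 3 kidney values lay above all 3 spleen values in 1700 genes (15.2%) and below them in 1896 (17%). The count rested strongly on the mouse pairing and on WT2: 891 genes passed without the mouse block, 673 without WT2, 1971 without WT3 and 2862 without WT1, and 589 genes passed in all 3 of the fits that leave a mouse out (462 higher in kidney, 127 in spleen). List counts given below without a mouse are to be read beside these totals. DESeq2 called 1434 genes, of which 1419 were also called by edgeR. No called gene changed its direction when a mouse was left out. DESeq2 had 1024 (9.16%) in the kidney direction and 410 (3.67%) in the other. The labels do not give the litters of the mice. With mouse as a block, the p-values rest on the spread of the kidney minus spleen difference over these 3 animals. They do not describe the spread of the levels between the animals.

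**Figure D1:**
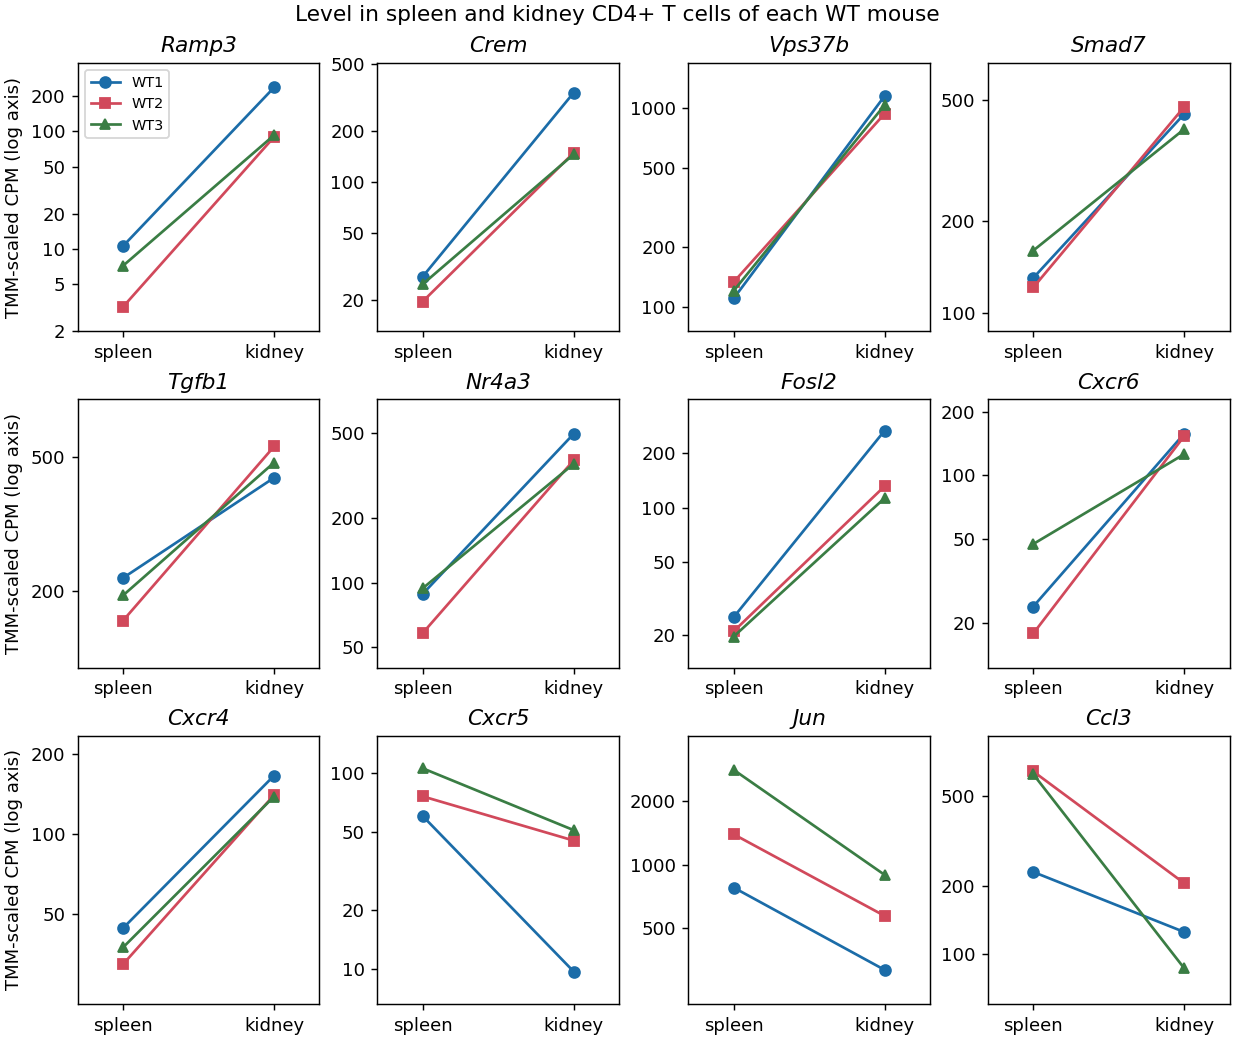
Level of 12 genes in spleen and kidney CD4+ T cells, in TMM-scaled CPM on a log axis, with 1 line for each of the mice WT1, WT2 and WT3. In the first 9 panels each line rises from spleen to kidney and the kidney points lie above all spleen points; in those of Cxcr5, Jun and Ccl3 each line falls.

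Among the 33 lists, which were chosen with earlier results of these data known, that of the TGF-beta response had the largest share called in kidney. Of 13 measured genes of that list, 11 were higher in kidney and none in spleen. The median of their log2 fold changes was 1.37, against -0.02 over all genes tested. Smad7, the inhibitory Smad that TGF-beta induces, stood at 450.4, 476 and 402 CPM in kidney and at 130.1, 121 and 160.1 in spleen. All kidney values lay above all spleen values (log2 fold change 1.73 ± 0.12 SE, adjusted p = 0.00036). The co-repressors that hold Smad complexes in check moved with it: Skil was at 263, 266 and 206 CPM against 68.6, 34.2 and 56.5 in spleen, and Ski at 60.1, 51.3 and 52.1 against 27.1, 14.2 and 19.9. Bambi, a decoy receptor without a kinase, rose from 4.48, 5.05 and 6.56 CPM in spleen to 33.3, 24.3 and 26.3 in kidney. Pmepa1 and Ldlrad4, both of which bind receptor-activated Smads and limit the signal, had log2 fold changes of 2.31 and 1.64, and Tgif1, another Smad co-repressor, 1.20. These 7 genes are all known as brakes on the pathway. Bhlhe40, a transcription factor of resident T cells, was called as well.

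The parts that carry the signal were higher too. The ligand Tgfb1 was measured at 433, 537 and 481 CPM in kidney and 218, 163 and 194 in spleen (log2 fold change 1.37 ± 0.14 SE, adjusted p = 0.0014), and the groups did not overlap. Smad3, which transduces the signal, stood at 46.2, 50.7 and 57.2 against 15.8, 26.6 and 27.0 CPM. The receptor Tgfbr2 differed less, with a log2 fold change of 0.57 ± 0.09 SE. The genes not called were the other receptor chain Tgfbr1 (32.8, 19.1 and 13.3 CPM in kidney, 25.5, 11.7 and 20.7 in spleen) and Itgae, the integrin chain CD103 that TGF-beta induces in resident T cells. Itgae stood at 43.8, 8.61 and 9.34 CPM in kidney and 94.6, 1.15 and 15.1 in spleen, and so was lower in the kidney of WT1 and WT3 and higher in that of WT2. Of the 11 kidney-higher genes, 10 were called in each of the 3 fits that left out a mouse. Without WT2, 1 of the 13 genes of the list was called higher in spleen. The same count was found with every cell thinned to 1500 UMIs.

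Genes of cyclic AMP signalling formed a second group: 13 of 24 measured were higher in kidney and 1 in spleen, and the median of their log2 fold changes was 0.66. The largest difference was in Ramp3 (chr11:6658506-6677478 in GRCm38.p6), which encodes a partner protein that gives the calcitonin receptor-like receptor its affinity for adrenomedullin. Its levels were 236, 89.6 and 92.8 CPM in kidney and 10.6, 3.22 and 7.19 in spleen. That is 19.7-fold (log2 fold change 4.30 ± 0.17 SE, adjusted p = 0.00015), and the lowest kidney value was far above the highest spleen value. Crem, the cyclic AMP response element modulator, stood at 339, 149 and 146 CPM in kidney and 27.4, 19.5 and 24.7 in spleen, or 8.61-fold (log2 fold change 3.11 ± 0.19 SE, adjusted p = 0.00025). For both genes WT1 had the highest kidney level, while the ratio between the organs was large in all 3 mice.

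Receptors of this pathway went different ways. Adrb1, the beta-1 adrenergic receptor, was higher in kidney (12.3, 26.2 and 47.8 CPM against 4.66, 4.13 and 11.6), as was Adora2a, an adenosine receptor, by a small margin (80.9, 79.3 and 80.9 against 54.2, 67.5 and 68.6). Ptger2, a prostaglandin E2 receptor, was higher in spleen (48.0, 5.00 and 9.91 CPM in kidney, 70.8, 5.28 and 18.2 in spleen), and Calcrl, Ptger4 and Ramp1 were not called. Downstream, the phosphodiesterases that break down cyclic AMP were higher in kidney: Pde4d at 252, 531 and 441 CPM against 63.7, 188 and 180.3, and Pde4b at 458, 211 and 193 against 185, 104 and 115, with Pde3b and Pde7a at log2 fold changes of 0.80 and 0.59. The stimulatory G protein Gnas (0.76), the regulatory kinase subunit Prkar1a (0.76), Creb1 (0.40), the CREB-induced kinase Sik1 (0.99) and the G-protein regulator Rgs2 (1.53) were also called. Without WT2, 7 of the 24 were called in the kidney direction.

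AP-1 transcription factors, dimers of FOS and JUN family members that follow activation or stress, did not move together. Of 17 measured members of the AP-1 and MAF family, 11 were higher in kidney and 3 in spleen. Fosl2 stood at 265, 131 and 113 CPM in kidney and 25, 20.9 and 19.6 in spleen, or 7.64-fold (log2 fold change 2.93 ± 0.17 SE, adjusted p = 0.00025). Atf3, Maff, Fosb, Bach2 and Jund followed, with log2 fold changes of 1.66, 1.60, 1.12, 1.11 and 0.95. The prototype members went the other way. Jun was measured at 317, 572 and 896 CPM in kidney and 779.5, 1396 and 2825 in spleen, and Fos at 678, 576 and 693 and 1569, 1272 and 2808, with log2 fold changes of -1.38 and -1.42. In every mouse Jun was higher in the spleen than in that mouse's kidney, but the mice differed among themselves so that the groups overlapped, while those of Fos did not. Batf was also higher in spleen, with a log2 fold change of -0.33. Without WT2, 3 of the 17 were called in the kidney direction and 2 in the spleen direction.

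The NR4A genes, orphan nuclear receptors induced by antigen receptor signals and by cyclic AMP, were all higher in kidney. Nr4a3 stood at 493, 371 and 357 CPM in kidney and 88.5, 58.1 and 94.0 in spleen (log2 fold change 2.39 ± 0.13 SE, adjusted p = 0.00023). Nr4a1 was at 750.2, 482 and 537 against 224, 192 and 282 CPM, and Nr4a2 at 538, 674 and 667 against 386, 294 and 402. In all 3 genes the groups did not overlap. Other genes of that list, which antigen receptor signals induce, did not follow, and of its 10 measured members 3 were higher in kidney and 3 in spleen. Egr2 was higher in spleen (9.53, 5.69 and 8.49 CPM in kidney, 44.8, 19.3 and 24.9 in spleen), as were Cd69 and Ier3, while Egr1 was not called, at 179.6, 132 and 218 CPM in kidney and 177, 175 and 219 in spleen.

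The promoters of the 3 NR4A genes, from 250 bases before to 50 after the start taken by their RefSeq promoter entry in GRCm38.p6, are printed. They are shown because these genes moved together and carry a sequence tied to cyclic AMP. The RefSeq spans of Nr4a1 and Nr4a3 begin at 101253902 and 48045078, so these windows are not placed on the first base of the gene. Capitals mark TGACG, the core that CREB and CREM bind, or its reverse complement CGTCA. Each is printed 5′ to 3′ on the strand of the gene.
Nr4a1, chr15:101266596-101266895, plus strand: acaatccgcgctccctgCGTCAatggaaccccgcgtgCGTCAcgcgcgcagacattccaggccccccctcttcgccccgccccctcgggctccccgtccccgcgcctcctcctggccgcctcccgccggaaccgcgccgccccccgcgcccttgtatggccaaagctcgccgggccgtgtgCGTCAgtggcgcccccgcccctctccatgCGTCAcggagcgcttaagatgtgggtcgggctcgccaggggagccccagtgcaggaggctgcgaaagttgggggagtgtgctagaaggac
Nr4a2, chr2:57123954-57124253, minus strand: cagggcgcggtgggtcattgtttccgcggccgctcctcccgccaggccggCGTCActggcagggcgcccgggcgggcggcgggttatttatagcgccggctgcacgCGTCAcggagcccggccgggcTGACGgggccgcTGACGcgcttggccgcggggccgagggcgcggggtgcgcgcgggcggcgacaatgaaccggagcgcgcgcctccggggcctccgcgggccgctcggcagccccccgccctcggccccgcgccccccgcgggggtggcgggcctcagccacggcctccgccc
Nr4a3, chr4:48045055-48045354, plus strand: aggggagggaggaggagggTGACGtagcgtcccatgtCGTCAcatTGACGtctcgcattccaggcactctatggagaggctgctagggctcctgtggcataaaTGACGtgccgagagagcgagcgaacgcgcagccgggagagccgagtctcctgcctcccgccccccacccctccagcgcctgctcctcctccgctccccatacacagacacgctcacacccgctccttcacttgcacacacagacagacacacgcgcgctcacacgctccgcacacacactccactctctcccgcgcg
Each of the 3 windows holds the 5 letters 4 times, on either strand. Of the 27025 genes with a RefSeq promoter entry, 23% hold them at least once, and the same was found for 37.6% of the 8652 tested genes that have an entry. Among called genes the share was 46.7% of 1199 that were higher in kidney and 31.6% of 915 that were higher in spleen, against 36.8% of 6539 not called. The full palindrome TGACGTCA, which contains TGACG, was present in 6.34%, 2.51% and 3.67% of these. Base composition moved with the same groups, since the median GC content of the windows was 63.3%, 58.7% and 60.7%, and its part in the difference was not tested. In the AP-1 and MAF list, 7 of the 11 kidney-higher genes held TGACG (Atf3, Atf4, Fosb, Maff, Mafg, Mafk and Nfil3). In the cyclic AMP list it was found in 5 of the 8 kidney-higher genes with an entry (Adrb1, Gnas, Pde4b, Prkar1a and Rgs2), in 4 of the 5 such genes of the lipid and cholesterol list (Acsl4, Hmgcs1, Insig1 and Srebf2), in all 3 of the NR4A and EGR list, and in none of the 5 of the TGF-beta list. A match shows only that the letters are there.

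**Figure D2:**
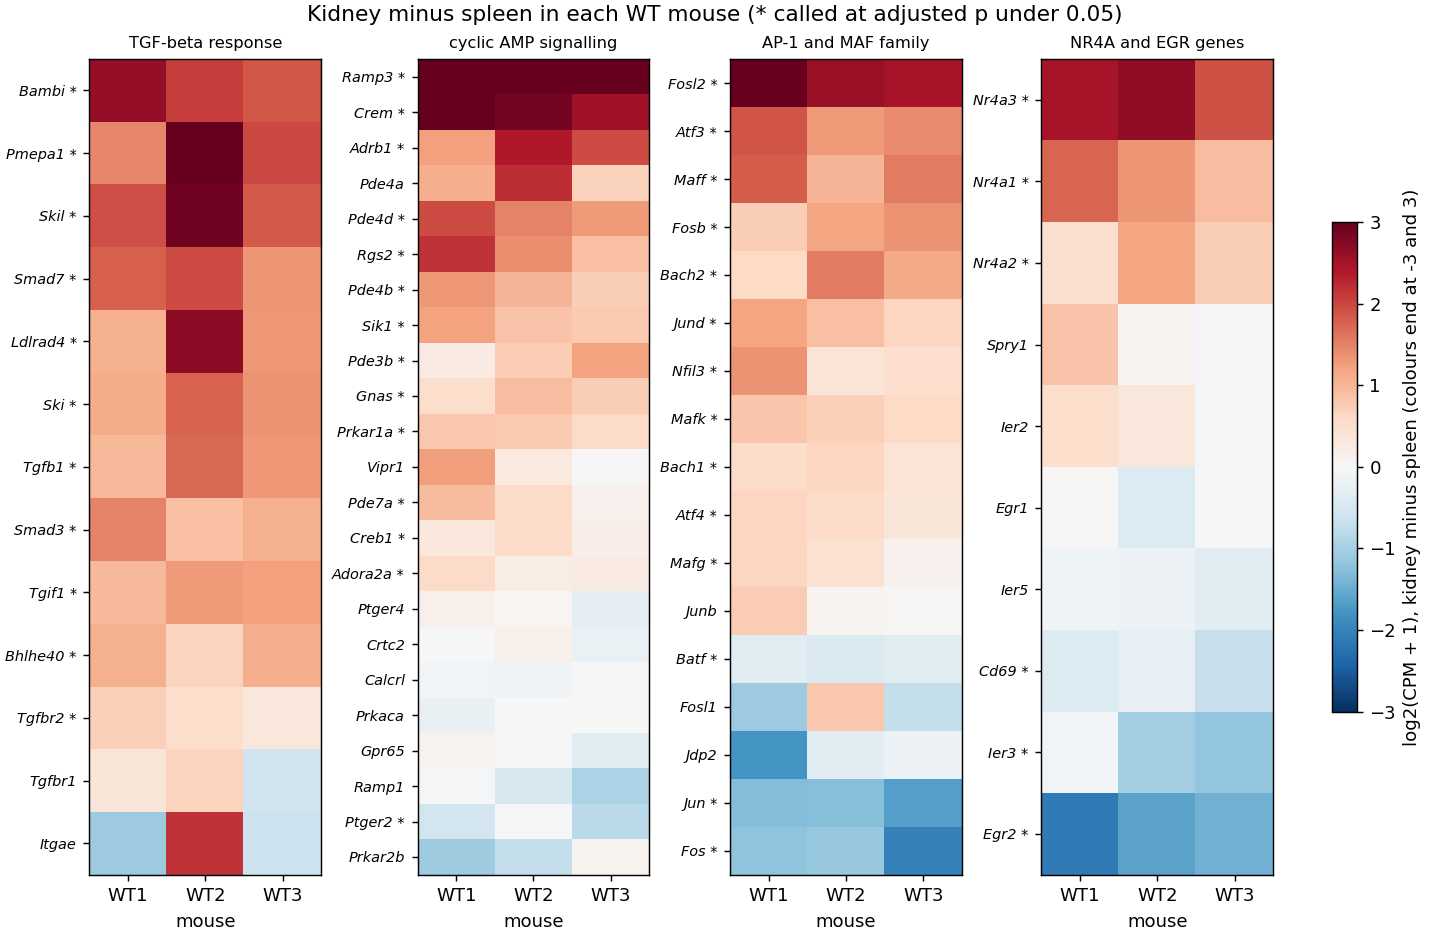
Kidney minus spleen difference in log2(CPM + 1) for each WT mouse, for measured members of 4 gene lists ordered by fitted fold change. Nearly all TGF-beta response genes are red in all 3 mice, while the AP-1 list runs from Fosl2 (red) to Jun and Fos (blue).

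Genes of tissue retention and residency, which include regulators inside the cell, were mostly higher in kidney. Of 17 measured members, 10 were called in that direction and 1 in the other. Of these, Nr4a1, Rgs2 and Bhlhe40 are also counted in the NR4A, cyclic AMP and TGF-beta lists above. Cxcr6, a chemokine receptor of resident T cells, stood at 158, 154 and 126 CPM in kidney and 24.0, 17.9 and 47.4 in spleen (log2 fold change 2.40 ± 0.27 SE, adjusted p = 0.0018). Itga1, the collagen-binding integrin chain, was at 15.0, 8.96 and 10.2 CPM against 2.60, 0.459 and 0.757, and Cdh1, E-cadherin (chr8:106603350-106670247), at 21.3, 31.0 and 30.6 against 0.807, 0 and 3.15. Cdh1 is also a tubule gene, but 420 UMIs of it were counted in kidney and 419 of them lay outside the clusters of other cells. Rgs1, which dampens chemokine receptors, was among the most abundant differing transcripts, at 2971, 3978 and 3296 CPM in kidney and 832, 1855 and 2019.5 in spleen. Runx3, Bhlhe40, Hic1 and Litaf had log2 fold changes of 0.82, 0.97, 2.20 and 0.88. The exception was Cd69, the early activation and retention marker, at 419, 470.2 and 431 CPM in kidney and 554, 557 and 692 in spleen, and the groups did not overlap. Without WT2, 9 members were called in the kidney direction.

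Genes of homing to lymphoid organs were split, with 5 of 14 measured higher in kidney and 2 in spleen (6 and 6 without WT1, 2 and 1 without WT2, and 8 and 2 without WT3). Cxcr5, the receptor for the B cell follicle, was lower in kidney, at 9.69, 45.3 and 51.2 CPM against 60.5, 76.3 and 106 in spleen (log2 fold change -1.35 ± 0.31 SE, adjusted p = 0.023). Each kidney value was below that of the same mouse's spleen, with the least Cxcr5 in the kidney of WT1. In contrast Cxcr4, a receptor for the stromal chemokine CXCL12, was higher in kidney at 166, 140.2 and 138 CPM against 44.3, 32.4 and 37.5, and so were Gpr183, the receptor for oxysterols (559, 719 and 855 against 315, 284 and 535), Ccr7 (418, 69.1 and 92.8 against 141, 52.6 and 68.5), Foxo1 and S1pr4. S1pr1 and its inducer Klf2 were not called. S1pr1 stood at 207, 48.1 and 51.2 CPM in kidney and 47.2, 27.6 and 50.6 in spleen, and in both S1pr1 and Ccr7 the difference lay mainly in WT1.

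**Figure D3:**
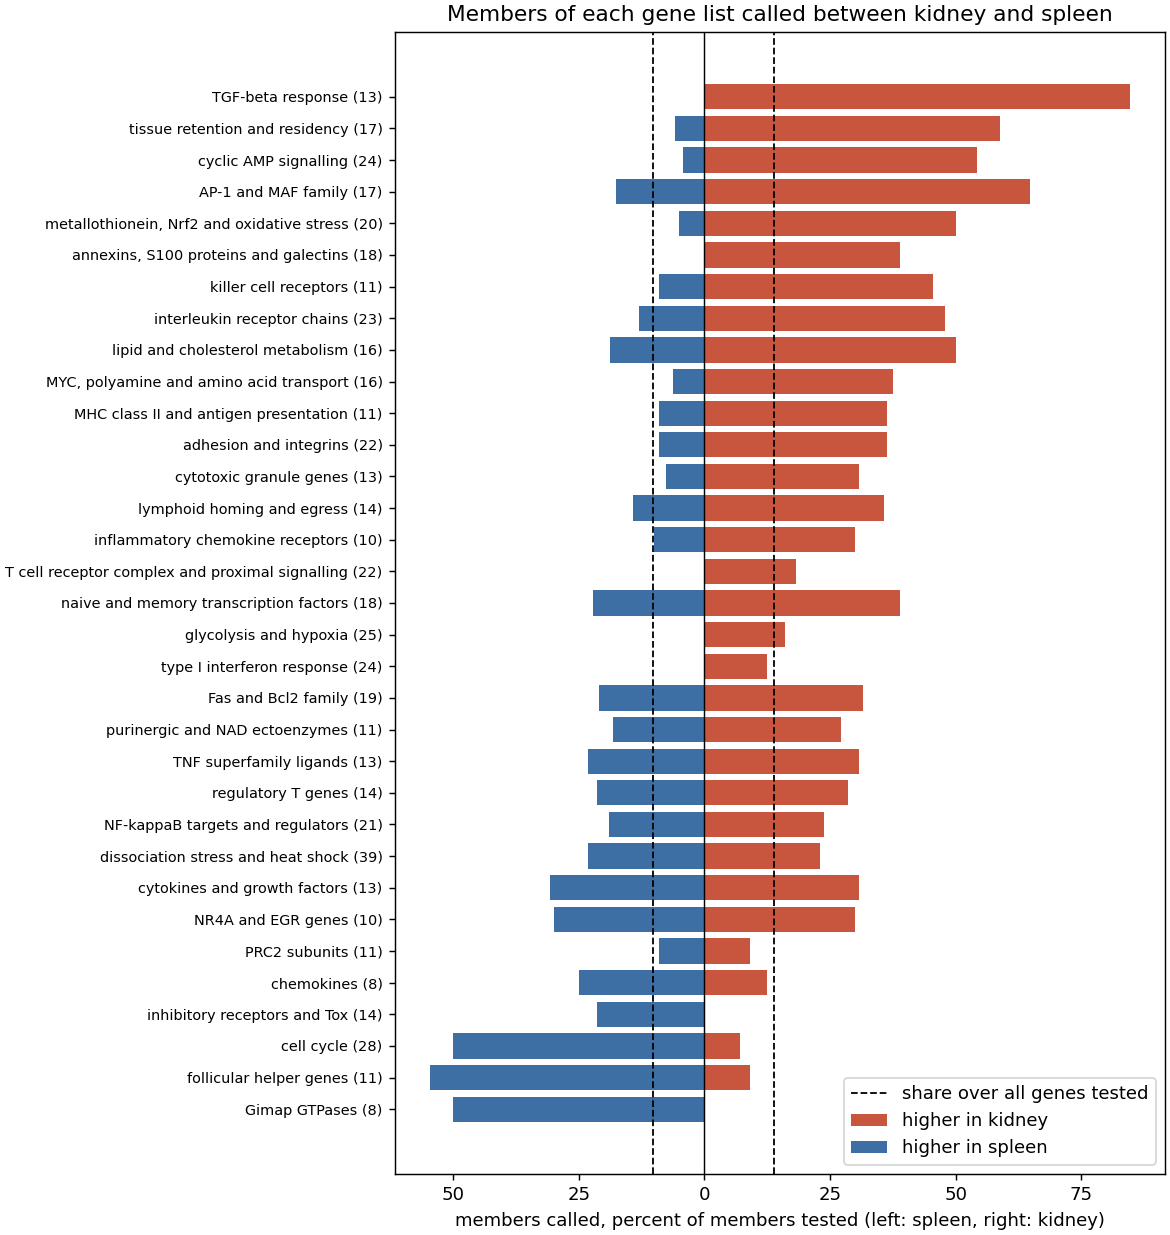
For 33 gene lists, the percent of measured members called higher in kidney (red, to the right) or in spleen (blue, to the left), with the number measured in parentheses. The lists were chosen with earlier results of these data known. Dashed lines mark 13.9% and 10.3%, the shares over all genes tested; the TGF-beta list reaches furthest to the right and the Gimap, follicular helper and cell cycle lists lie to the left.

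Among receptors for cytokines, 11 of 23 measured chains were higher in kidney and 3 in spleen (6 and 1 of 24 without WT2). Ifngr1, the ligand-binding chain of the interferon-gamma receptor, stood at 912, 776 and 747 CPM in kidney and 134, 126 and 151 in spleen, or 6.06-fold (log2 fold change 2.60 ± 0.11 SE, adjusted p = 0.00015), and the 3 values within each organ differed little. Il4ra (1.79), Il12rb2 (2.40), Il18r1 (1.58), Il21r (0.88) and Ifnar1 (0.98) were higher in kidney on the log2 scale. Il1r2, the decoy receptor for interleukin-1, was higher in spleen, at 49.8, 5.00 and 7.64 CPM in kidney and 185, 14.2 and 22.6 in spleen, with most of it in WT1. Il27ra and Il12rb1 were also higher in spleen.

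Effector cytokines did not move one way. Tnfsf11, which encodes RANKL, was higher in kidney (262, 33.6 and 120.0 CPM against 63.2, 5.05 and 30.3), as were Fasl (282, 371 and 370.2 against 127, 222 and 225), Tnf (133, 185 and 222 against 89.9, 107 and 166), Areg and Il2, the last at 13.1 CPM at most. Il21, the helper cytokine for B cells, was higher in spleen (25.2, 6.89 and 7.64 CPM in kidney, 78.8, 16.8 and 31.0 in spleen). The same direction was seen in Il16 (69.9, 76.2 and 72.7 against 156, 154 and 181) and Il10 (40.2, 14.8 and 11.9 against 62.5, 37.4 and 47.9). The chemokines Ccl3 and Ccl4, which recruit effector cells, were higher in spleen too: Ccl3 was at 125, 206 and 86.3 CPM in kidney and 231, 643 and 625 in spleen, and Ccl4 at 289, 899 and 493 and 513, 2080.1 and 1834. Both lost their call without WT2, at log2 fold changes of -1.80 and -1.31. Cxcl16, the ligand of CXCR6, was the 1 chemokine higher in kidney (2.82), at 3.88, 2.58 and 8.49 CPM in kidney and 0.986, 0.459 and 0.505 in spleen. Without the clusters of other cells none of the 6 chemokines tested was called higher in kidney. Ccl5, the most abundant of them, and Ifng were not called: Ifng was at 323, 331 and 297 CPM in kidney and 236, 673 and 828 in spleen, higher in the kidney of WT1 and lower in that of WT2 and WT3. Within the 5 clusters tested one by one below, Ifng was called higher in spleen in 5 of 5 (log2 fold changes of -1.53 to -1.21) and Ccl5 in 4 of 5 (-1.14 to -0.27).

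Metabolic genes leaned to the kidney in 3 lists. In the list of lipid and cholesterol metabolism, 8 of 16 were higher in kidney and 3 in spleen. Those that were higher include Insig1, a sensor that SREBP induces (125, 113 and 84.1 CPM against 47.7, 41.1 and 34.3), and the synthesis enzymes Hmgcs1, Sqle and Idi1, with log2 fold changes between 0.91 and 0.98. The sterol exporters Abca1 (4.04, 1.21 and 2.26 CPM in kidney, 13.4, 3.45 and 6.31 in spleen) and Abcg1, and the desaturase Scd2, were higher in spleen. Of 20 genes for oxidative stress, 10 were higher in kidney and 1 in spleen, led by Prdx6, a peroxiredoxin (489, 539 and 411 CPM against 162, 145 and 191), and by ferritin Fth1 (3274, 3024 and 2947 against 1565, 1422 and 1601). Of 16 genes for polyamine and amino acid supply, 6 were higher in kidney, led by Odc1, the rate-limiting enzyme of polyamine synthesis (295, 524 and 482 CPM against 119.6, 163 and 126), and the transporter chains Slc3a2 (1.58) and Slc7a5 (1.45). Myc itself was higher in spleen (-0.78). Without WT2, 4, 2 and 3 genes of the 3 lists were called in the kidney direction, while the calls over all genes fell from 2700 to 673.

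Fewer lists leaned to the spleen. Of 28 cell cycle genes 14 were higher in spleen and 2 in kidney, among them Mki67 (48.9, 124 and 46.4 CPM in kidney, 96.2, 175 and 89.7 in spleen), Aurkb (-1.15) and Ccnb1 (-1.70). With every cell thinned to 1500 UMIs, 2 of 24 were higher in spleen and 3 in kidney; cells of the cycling cluster described below held a median of 12321 UMIs. Without WT2, 5 were higher in spleen. Follicular helper genes, which serve help to B cells, counted 6 of 11 higher in spleen and 1 in kidney. The 6 were Il21, Cxcr5, Pou2af1 (11.3, 1.90 and 3.40 CPM in kidney, 57.3, 11.9 and 9.34 in spleen), Slamf6, Sh2d1a and Cd200, and the costimulator Icos was the exception (620.3, 231 and 254 against 226, 103 and 162). Without WT2, 2 members were called in the spleen direction. Foxp3, the transcription factor of regulatory T cells, was lower in kidney (37.5, 0.861 and 5.66 CPM against 118, 2.53 and 27.8), and WT2 had almost none in either organ. The inhibitory receptor Lag3 (274, 123 and 48.1 CPM against 589.7, 235 and 314), the exhaustion-linked factor Tox (454, 326 and 362 against 766, 409 and 545) and Cd160 were higher in spleen, and none of the 14 genes of inhibitory receptors was higher in kidney; without WT2 none was called in either direction. Of 8 Gimap genes, GTPases that support lymphocyte survival, 4 were higher in spleen (Gimap1, Gimap5, Gimap7 and Gimap8). In that direction 8 were called without WT1, 0 without WT2 and 1 without WT3. Within clusters 0, 2, 3, 4 and 5 described below, 8, 4, 7, 7 and 7 were called higher in spleen and 0 in kidney. Over all genes tested there, 3.64% to 8.69% were higher in spleen.

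Killer cell genes were partly higher in kidney, with 5 of 11 killer receptor genes and 4 of 13 cytotoxic granule genes called in that direction and 1 of each in the other (3 and 3 in the kidney direction without WT2). Klrc1, the NKG2A chain, had a log2 fold change of 2.11 and Klrk1, NKG2D, of 1.69. Gzma, a granzyme, stood at 73.3, 13.8 and 3.40 CPM in kidney and 14.5, 3.68 and 1.01 in spleen. Markers of CD8, gamma-delta and NK cells moved with these genes: Cd8a, although CD8a was stained in the sort, was at 23.9, 15.3 and 10.5 CPM in kidney and 5.65, 0.919 and 5.42 in spleen, 3 of 4 measured members of that list were higher in kidney, and its summed level was 125, 56.7 and 40.2 CPM against 43.1, 22.7 and 22.3. Their part in the result was not tested.

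Survival genes were mixed, with 6 of 19 members of the Fas and Bcl2 list higher in kidney and 4 in spleen (3 and 1 without WT2). Bcl2l1, the anti-apoptotic BCL-XL, stood at 46.4, 119.6 and 124 CPM in kidney and 22.9, 28.3 and 34.1 in spleen, and the pro-apoptotic Bcl2l11, BIM, at 43.6, 45.3 and 33.4 against 15.9, 11.0 and 13.8. In both the kidney values were the higher in every mouse. Fas, which the lpr insertion disrupts, was lower in kidney (-0.57), as was its adaptor Fadd (-1.13). Adhesion genes counted 8 of 22 higher in kidney and 2 in spleen (4 and 2 without WT2), with the integrin chains Itgb1 (1.62) and Itgb3 (1.55) among the former. Of 18 annexins, S100 proteins and galectins, 7 were higher in kidney and none in spleen, led by Crip1 (1.18) and vimentin, Vim (1.12). Without WT2, 20 were tested, as S100a8 and S100a9 entered, which the main fit did not test. Of these 20, 1 was called in the kidney direction and 2 in the other. Transcription factors of naive and memory cells counted 7 of 18 higher in kidney and 4 in spleen (3 and 0 without WT2), with Tbx21, T-bet, at 1.15 and Myb at -1.09.

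The remaining lists had 5 or fewer called genes in a direction. Higher in kidney and in spleen were 5 and 4 of 21 NF-kappaB genes, 4 and 3 of 14 regulatory T genes, 4 and 3 of 13 TNF ligands, 4 and 4 of 13 cytokines, 1 and 2 of 8 chemokines, 3 and 1 of 10 chemokine receptors, 3 and 2 of 11 purinergic genes, and 1 and 1 of 11 PRC2 subunits, the complex that holds EZH2. For the T cell receptor complex the counts were 4 and 0 of 22, and for glycolysis and hypoxia 4 and 0 of 25. For the type I interferon response they were 3 and 0 of 24, among them Irf7 (1.64). Over all genes tested 13.9% were higher in kidney and 10.3% in spleen, and the kidney counts of the last 3 lists lie near that share. Without WT2, 0 NF-kappaB genes, 0 chemokines, 0 chemokine receptors and 0 PRC2 subunits were called, and each of the other 7 lists had at most 2 calls in a direction. Of 11 genes of antigen presentation, 4 were higher in kidney and 1 in spleen, but 2 and 4 once the clusters of other cells were left out. Of the markers of other cells, 4 of 6 tubule and 5 of 10 myeloid genes were higher in kidney and 0 and 1 in spleen, and without the clusters of other cells 0 of 3 and 2 of 5 were higher in kidney and 1 and 1 in spleen. Of 3 measured B and plasma cell markers, 1 was higher in kidney (Jchain), neither of the endothelial markers measured was called, and no stromal or erythroid marker was abundant enough to test. Jchain was still called without the clusters of other cells (log2 fold change 2.8), and 1912 of its 4152 kidney UMIs lay outside them.

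By a rule of size (the 15 largest fitted fold changes in each direction among called genes with a mean of at least 20 CPM in the higher organ and the same sign in all 3 mice), 7 of the 15 kidney-higher genes were transcripts found in other cells, among them Miox, Fbp1, Slc34a1, Cd63, Gpx3 and Fxyd2, most of which mark the kidney tubule. Gpx3, a secreted peroxidase of the proximal tubule, stood at 151, 74.4 and 832 CPM in kidney and 18.9, 1.38 and 8.96 in spleen, and WT3 had the most. In each of the 7, between 98.0% and 99.7% of the kidney UMIs lay in clusters of other cells, which make up 36 of the 9497 cells. Apoe, C1qa, H2-Aa and H2-Ab1 were of the same kind, with 88.5%, 92.3%, 90.9% and 95.3%. Without these cells Gpx3 had a log2 fold change of -0.50 and Apoe 0.67, neither called, and the others of the 7 were too low to test. Leaving the clusters out gave 3344 calls. The 8 remaining kidney-higher genes of the rule were Cdh1, Ramp3, Osgin1, Grb7, Vps37b, Crem, Ppp2r2c and Apoe.

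The same rule applied to the sums without those cells, which was done after the values were seen, named Cdh1, Ramp3, Grb7, Osgin1, Vps37b, Crem, Ppp2r2c, Fosl2, Dgat1, Spsb1, Abcb1b, Mpp7, Ifitm1, Ifngr1 and Nrarp as higher in kidney. Vps37b (chr5:124004641-124032260), a subunit of the ESCRT-I complex that sorts membrane proteins for degradation, was the most abundant of them, at 1154, 939.8 and 1039 CPM in kidney and 111, 134 and 121 in spleen. The values within an organ lay close together and the groups did not overlap (log2 fold change 3.14 ± 0.14 SE, adjusted p = 0.00017). Dgat1, which makes triglycerides, was as even, at 100.3, 108 and 86.0 CPM against 12.9, 14.7 and 12.0, and had the smallest p-value of all genes (adjusted p = 0.00012). Abcb1b, a drug efflux pump, stood at 151, 209 and 208 against 18.6, 41.8 and 33.1 CPM, Grb7, a signalling adaptor, at 10.2, 47.0 and 25.8 against 1.25, 4.82 and 2.52, and Nrarp, a feedback inhibitor of Notch, at 35.5, 108 and 67.6 against 6.45, 13.3 and 14.6.

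Spleen-higher genes named by the rule included Phactr1, Ralyl, Gucy1a1, Ptprm, Art2b, Pou2af1, Rgs9, Cpm, Egr2, Slit3, Ephx1, Foxp3, Ccl3 and Il1r2. Phactr1 (chr13:42680374-43138526), a regulator of actin and protein phosphatase 1, had the largest difference, at 10.3, 1.03 and 2.55 CPM in kidney and 299, 29.9 and 24.0 in spleen (log2 fold change -4.60 ± 0.26 SE, adjusted p = 0.00023). WT1 had far more of it in the spleen than the other mice, a pattern shared by Ralyl, Gucy1a1, Ptprm, Rgs9 and Cpm. Phactr1, Ptprm, Cpm and Rgs9 were among the leading genes of a cluster of cells (cluster 8 of the clustering described below) that held 19.0% of WT1 spleen cells and 2.33% of its kidney cells, and at most 1.63% of either organ in WT2 and WT3. Art2b, an ecto-ADP-ribosyltransferase of T cells, did not share it (5.17, 10.9 and 2.26 CPM in kidney, 29.3, 43.4 and 11.9 in spleen). In a fit without the mouse block, 14 of the 15 genes of the rule were no longer called, Egr2 being the exception, while their fitted fold changes kept their sign.

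Transcripts that enzyme digestion and heating are known to induce went both ways over all cells, with 9 of 39 measured genes higher in kidney and 9 in spleen. The counts were 9 and 15 without WT1 and 3 and 4 without WT2. Within the clusters 0, 2, 3, 4 and 5 described below they were 8 against 18, 10 against 14, 7 against 15, 7 against 12 and 7 against 11. The genes tested there numbered 35, 35, 36, 34 and 33. Over all genes tested in those clusters, 6.35% to 11.1% were higher in kidney and 3.64% to 8.69% in spleen. Spleen calls were thus the more numerous in each cluster, and the median log2 fold change of the list ran from -0.39 to -0.05. Klf4, Atf3, Btg1, Fosb, Cebpb, Socs3 and Dnaja1 were among those higher in kidney, with log2 fold changes between 1.05 and 1.71. Jun, Fos, Dusp1, Zfp36, Rhob and Nfkbia were among those higher in spleen; Dusp1, a phosphatase of MAP kinases, was at 965, 718 and 942 CPM in kidney and 2056, 1580.0 and 2743 in spleen. The part of preparation in these and in the other differences was not tested.

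Cells were clustered without the listed genes and without every gene with an unadjusted p under 0.05 between the organs, which gave 15 clusters. Leaving those genes out mixes the organs by construction. The shares below therefore cannot decide whether the mix of cells differed between the organs. Cluster 0, with Ccr2, Gzmb, Ccl5 and Gzmk among its leading genes, made up 35.9% and 31.9% of kidney and 32.3% and 22.6% of spleen cells in WT2 and WT3. WT1 was different from the others in both organs. Its regulatory T-like cluster, led by Foxp3, held 6.32% of kidney and 20.9% of spleen cells, against 0% and 0.108% in WT2 and 0.422% and 2.38% in WT3. Follicular helper-like cells followed the same pattern, with 8.04% and 18.9% in WT1, none in WT2, and 0.739% and 0.699% in WT3, so that without WT1 the mean difference was 0.020 percentage points in place of -3.61. The kidney share was the lower in 3 of 3 mice for the regulatory T-like, cytotoxic-like (6.94%, 10.6% and 8.55% against 7.21%, 12.1% and 13%), cycling-like and naive-like clusters, at an exact two-sided sign-flip p of 0.25, which is the smallest that 3 mice allow. In WT2 a count of 0 allows a share of up to 3 in 1467 kidney cells and 3 in 922 spleen cells. At a clustering resolution of 0.6 the cytotoxic-like share was higher in the kidney of WT1 (9.52% against 9.22%) and lower in that of the other mice (exact p = 0.5). In WT1, 53.5% of kidney and 13.5% of spleen cells fell into cluster 1, which is led by Ifitm1, Ifitm2, Ifitm3 and Ramp3 and has no name here.

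**Figure D4:**
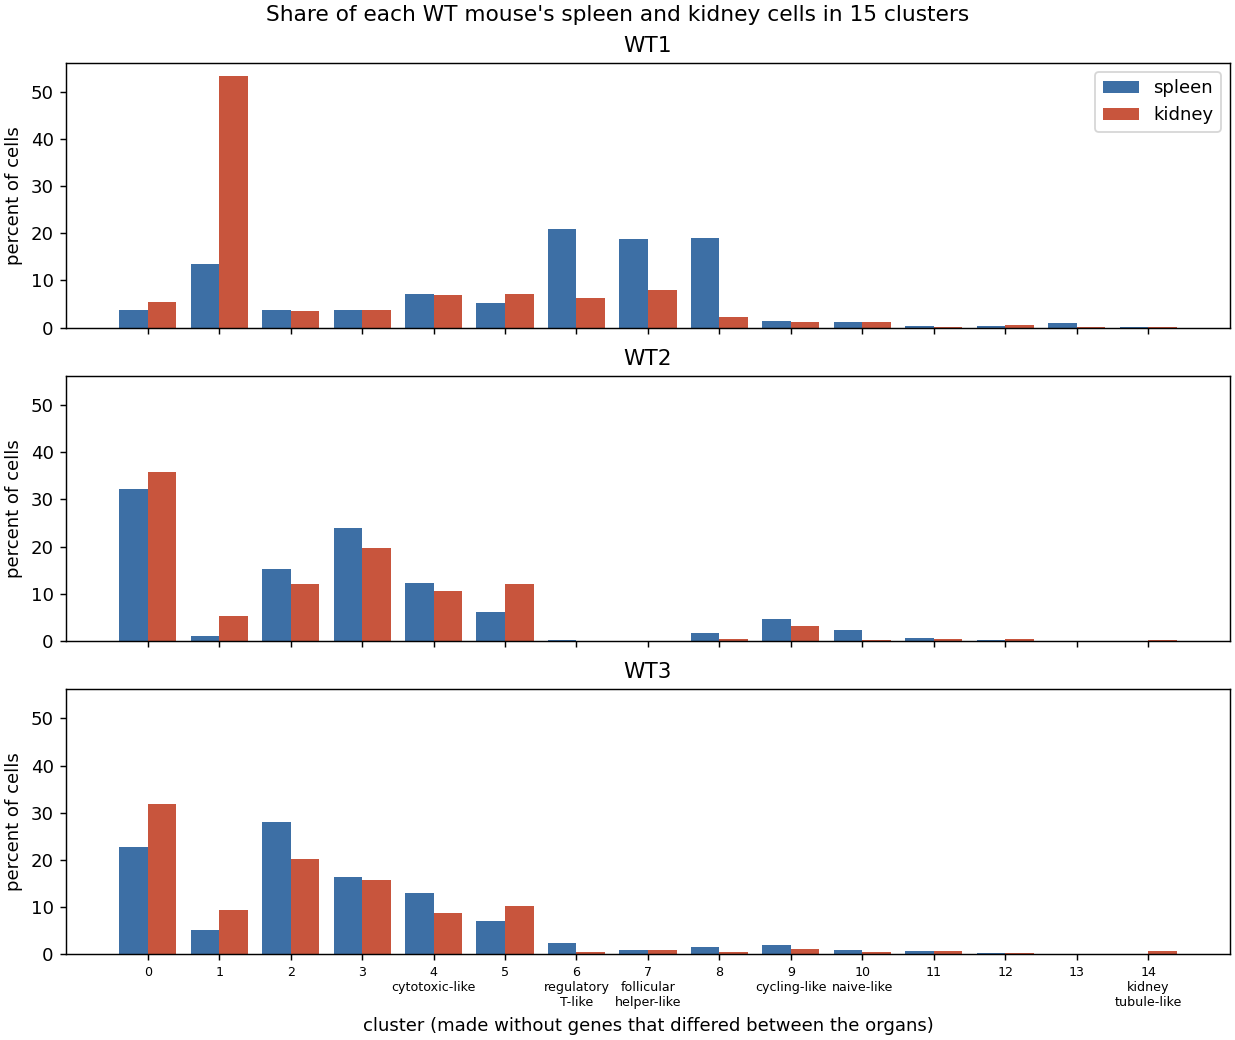
Percent of each WT mouse's spleen (blue) and kidney (red) cells in each of 15 clusters, made without the genes that differed between the organs. WT2 and WT3 have their cells mainly in clusters 0, 2, 3, 4 and 5 in both organs, while WT1 has 53.5% of its kidney cells in cluster 1 and 20.9% of its spleen cells in the regulatory T-like cluster.

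The comparison was repeated within clusters. These were made without the genes that differed between the organs, which mixes the organs by construction, and 4 of the 5 have no name, so they are not shown to hold cells of 1 kind; in cluster 4, Cd8a and Cd8b1 were called higher in kidney (1.78 and 1.76). Counts were summed within the 5 clusters that held at least 30 cells in all 6 blocks (clusters 0, 2, 3, 4 and 5). There, 1482 of 7494 genes (19.8%), 1139 of 6567 (17.3%), 950 of 7554 (12.6%), 626 of 6264 (9.99%) and 499 of 3807 (13.1%) were called between the organs. In the same order, the share called higher in kidney was 11.1%, 10.7%, 7.49%, 6.35% and 8.01%, and that called higher in spleen was 8.69%, 6.62%, 5.08%, 3.64% and 5.1%. Crem was higher in kidney in each, with log2 fold changes from 2.35 to 4.92, and so were Vps37b (2.28 to 3.72), Fosl2 (1.89 to 3.37), Ifngr1 (2.26 to 3.26), Smad7 (1.07 to 1.84), Skil (1.68 to 2.30), Tgfb1 (1.23 to 1.75), Nr4a3 (1.80 to 2.58), Cxcr4 (1.25 to 2.35) and Cxcr6 (1.54 to 2.14), all called in 5 of 5 clusters. In the TGF-beta list, 11 of 12, 10 of 12, 10 of 12, 7 of 10 and 8 of 9 measured genes were called higher in kidney and none in spleen. Jun, Fos, Dusp1, Ccl3, Ccl4, Il16, Lag3 and Tox were called higher in spleen in 5 of 5, with Jun between -2.11 and -1.64 and Lag3 between -2.08 and -1.38. Of the cell cycle list, 5 to 13 genes were tested within a cluster, and 0 or 1 was called higher in spleen. The cycling-like cluster is not among these clusters. Their counts therefore cannot decide whether the lean of that list to the spleen holds in cycling cells. These clusters hold cells of the main comparison and are no separate samples.

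**Figure D5:**
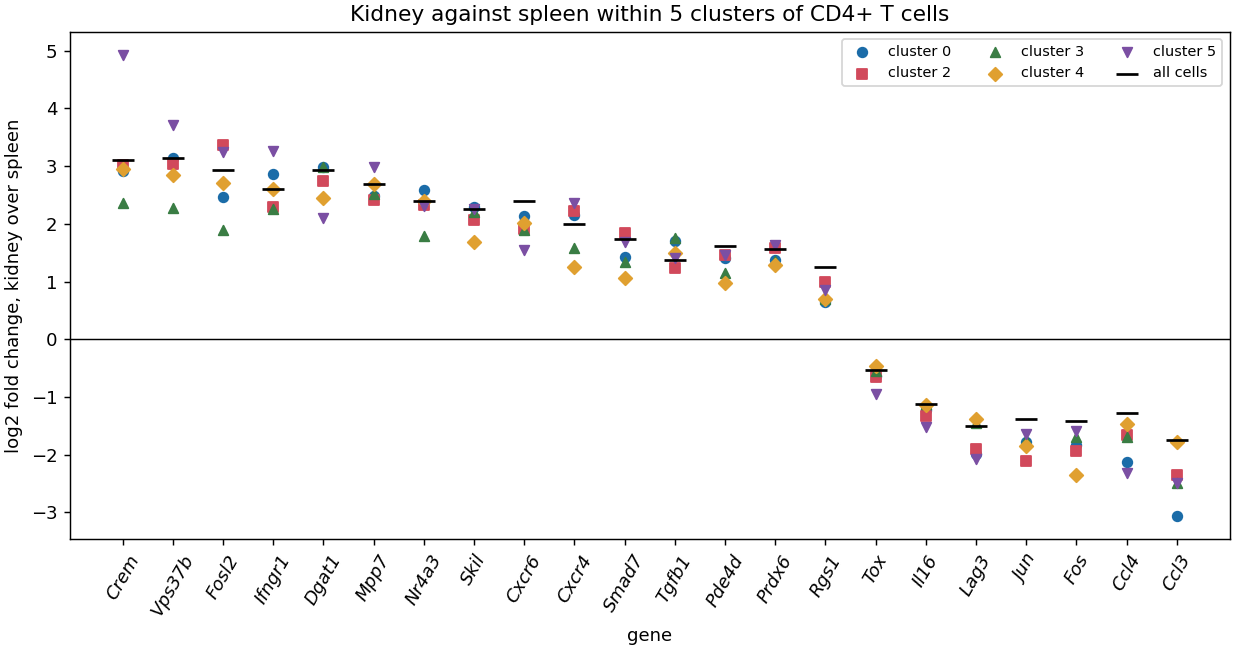
Log2 fold change between kidney and spleen for 22 genes within clusters 0, 2, 3, 4 and 5 (coloured symbols) and over all cells (black bars). The 15 genes to the left lie above 0 in all 5 clusters and the 7 to the right below 0.

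A simpler split gave the same directions for these genes. Among cells with at least 1 UMI of Gzmk, a granzyme of effector T cells, 2319 of 10179 genes (22.8%) were called, 1374 (13.5%) higher in kidney and 945 (9.28%) in spleen. Among cells with neither Gzmk nor Foxp3, which were few in WT2 (181 kidney and 98 spleen cells), 715 of 7947 (9%) were called, 503 (6.33%) higher in kidney and 212 (2.67%) in spleen. Log2 fold changes in the Gzmk cells and in the others were 4.47 and 4.13 for Ramp3, 3.18 and 3.28 for Crem, 3.25 and 2.77 for Vps37b and 1.73 and 1.77 for Smad7. The count in Gzmk cells was 1201 without WT2 and 873 without WT3, and that in the others was 1275 without WT3.

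Differences in level went with the share of cells in which a transcript was seen. Thinning every cell to 1500 UMIs left out cells with fewer and kept 1553, 1409 and 905 kidney and 2279, 894 and 2070 spleen cells. Vps37b was found in 70.4%, 69.3% and 70.4% of kidney cells and in 15.0%, 18.1% and 15.9% of spleen cells; unthinned, these were 86.4%, 87.1% and 86.1% against 28.3%, 37.7% and 28.9%. For Ifngr1 the shares were 64.6%, 61.5% and 62.4% against 17.0%, 17.1% and 17.1%. Nr4a3 was seen in 42.6%, 36.0% and 37.5% against 11.8%, 8.05% and 11.0%, and Smad7 in 41.1%, 46.5% and 43.2% against 20.1%, 19.0% and 20.7%. Ramp3 was found in 25.1%, 10.5% and 10.6% of kidney cells and in 1.76%, 0.337% and 0.918% of spleen cells. In each of these 5 genes the kidney shares lay above all spleen shares. Jun went the other way, with 23.3%, 38.0% and 47.1% in kidney and 53.2%, 74.5% and 86.4% in spleen. Cd4 was seen in 39.2%, 38.3% and 42.1% of kidney and 37.7%, 43.2% and 46.5% of spleen cells. The exact sign-flip p was 0.25 for each of these genes but Cd4, where it was 0.5. Igkc, which T cells do not make and which is given as a measure of RNA from outside the cell, was seen in 7.02%, 34.7% and 23.9% of kidney and 12.0%, 34.0% and 28.9% of spleen cells. The shares of Ramp3 in WT2 and WT3 lie below those of Igkc in the same blocks, and those of Vps37b and Ifngr1 in kidney lie above them.

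The difference between the organs was set beside that in the 2 KO mice of the same day, which are other animals. Of the 1549 genes called higher in WT kidney, 1297 (83.7%) were higher in kidney in both KO mice, against 23.2% of the 8482 genes not called in WT. Of the 1151 called higher in WT spleen, 902 (78.4%) were lower in kidney in both KO mice, against 40.7%. A test of the difference between the organ effects of the genotypes called 4 of 12072 genes (0.0331%), namely S100a8, S100a9, Dsp and Ccl4. At an unadjusted p under 0.05 there were 993. The count was 29 with DESeq2, and 129, 2 and 14 without WT1, WT2 and WT3. Ccl4 stood at 185 and 278 CPM in KO kidney and at 63.4 and 155 in KO spleen, the reverse of the WT order. The 10 next in rank, among them Adam19, Anxa2, Fasl, Perp, Bambi and the tubule genes Fbp1, Gpx3 and Miox, all had an adjusted p of 0.073. With KO2 at 219 kidney cells, the KO levels are the less precise. Among the genes above, Crem was at 249 and 292 CPM in KO kidney against 34.3 and 36.1 in KO spleen, and Smad7 at 491 and 484 against 226 and 198.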

How the data were processed

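Single-cell 5' gene expression and antibody tags of CD4+ T cells were read with Cell Ranger 7.1.0 against mm10, and Seurat 5.0.1 was used, per the submitters' processing notes. The deposited matrices hold UMI counts, whole numbers that are not normalized, for 32285 genes and 10 tags, per the file headers. The numbered tags were joined to the mice through the order of the deposited key. Of 9525 WT cells of the first day, 13 led by another tag and 15 with fewer than 200 genes or at least 10% mitochondrial UMIs were left out. No doublet caller was run; the leading tag was the only guard against mixed cells, and doublets within a block remain. The second day (8 blocks, 17523 entries) was not used here.

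UMIs were summed per mouse and organ and tested with edgeR 4.0.16 (quasi-likelihood, TMM, filterByExpr, mouse as a block), with Benjamini-Hochberg adjustment at 0.05 over all genes tested, in R 4.3.3. Alternatives were DESeq2 1.42.0, RLE scaling, other low-count filters, no block, sums without clusters of other cells, thinned cells and each mouse left out. The block was used because both organs came from the same mouse; deviations from the organ means correlated at r = 0.641, 0.622 and 0.258 within the mice WT1, WT2 and WT3. Named genes were, besides the members of the lists, the 15 with the largest fold change in each direction at an adjusted p under 0.05, the same sign in 3 of 3 mice and at least 20 CPM in the higher organ, without predicted genes, receptor segments and ribosomal proteins, and the 10 smallest adjusted p for the genotype difference; of each list, called and defining members. The comparison and the 40 gene lists were chosen with earlier results of these data known. Cells were clustered with the Leiden method (igraph 0.11.9; 2000 variable genes, 30 principal components, 15 neighbours). Shares and single values were tested with an exact two-sided sign-flip permutation over 3 mice. The test was tested on simulated data of the main comparison with 9393 genes, of which 200 were changed. There, 100% of changes of 2 and 91% of changes of 1 on the log2 scale were called, as were 9 unchanged genes. The simulation gave all genes the same scatter and all mice the same organ effect, so these rates need not hold for the real data. Some genes that the rule or the lists hold are not reported here. Promoters are RefSeq's for GRCm38.p6.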

Additional observations from a re-analysis of the deposited data

Results flagged for a closer look

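The difference between kidney and spleen was not the same in WT and KO mice for 4 genes, by a test of the difference between the organ effects (edgeR, Benjamini-Hochberg adjustment). S100a8, a calcium-binding protein of neutrophils, had a log2 kidney minus spleen difference that was more positive by 9.82 in KO than in WT mice (adjusted p = 0.00062), and its partner S100a9 one more positive by 11.98 (adjusted p = 0.00062). S100a8 stood at 147, 0.230 and 115 CPM in the spleens of WT1, WT2 and WT3 and at 0.162, 0 and 0 in their kidneys, while the KO mice had 0 and 41.2 CPM in spleen and 0 and 37.4 in kidney. S100a9 stood at 165, 0.230 and 145 CPM in WT spleens and at 0 in all 3 WT kidneys, against 0.187 and 70.8 in KO spleens and 0 and 65.7 in KO kidneys. Both fitted values rest on blocks at or near 0 and are no measure of size, and cells of cluster 12, led by S100a8, number 27. For Dsp, a desmosome protein, the difference was more positive by 3.43 in KO mice (adjusted p = 0.026): it stood at 7.11, 1.03 and 0.849 CPM in WT kidney and 36.9, 4.59 and 4.42 in WT spleen, but at 11.3 and 12.5 in KO kidney and 5.78 and 5.35 in KO spleen. For Ccl4 it was more positive by 2.53 (adjusted p = 0.034). All 3 WT mice had more Dsp and more Ccl4 in spleen, and both KO mice had more of each in kidney.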

How the results depend on the processing

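The number of genes called between the organs (2700) was 891 without the replicate block, 1434 with DESeq2, and 673 to 2862 when 1 mouse was left out. The genotype difference (4 genes) became 29 with DESeq2, 327 with no low-count filter and 2 to 129 when a mouse was left out. Among Gzmk cells (2319) the count was 901 without the replicate block, 1024 with DESeq2 and 873 to 3249 when a mouse was left out. Among cells with neither Gzmk nor Foxp3 (715) it was 355 without the replicate block, 367 with DESeq2, 1322 with no low-count filter and 560 to 1275 when a mouse was left out. Of 47 named genes, 24 lost their call without the replicate block and 6 without WT2. Log2 fold changes turned sign for Gpx3 (-0.50 without clusters of other cells) and for Adam19, which is not called (-0.21 thinned to 1500 UMIs). Differences in the share of cells with a UMI, kidney minus spleen in percentage points, were 23.7 for Ramp3, 32.3 for Smad7, 40.4 for Nr4a3 and 18 for Cxcr6 unthinned, and 47.0 for Vps37b, 19.9 for Smad7 and 22.0 for Nr4a3 thinned to 1000 UMIs; more UMIs per cell raise such shares by construction. The cytotoxic-like share difference was -37.3 percentage points in clusters made with the organ genes, which separated the organs, and the difference was 15.9 for the cluster that took the naive label by its markers at a resolution of 0.6, which is led by Ifitm2, Ifitm3 and Ramp3 and is not comparable with the naive-like cluster. Apart from the alternatives just given for each, the cause was not tested. Leaving out mice from the shares and summing within clusters were alternatives chosen after seeing the data. The depth was 3473946 UMIs or more in each sum of the main comparison. Other sums were smaller, down to 900068 UMIs in the KO mice (KO2 kidney) and 2004943 in Gzmk cells (WT1 kidney). Among cells with neither Gzmk nor Foxp3 the lowest was 376177 (WT2 spleen), and within clusters 126013 (cluster 5, WT2 spleen). Genes below the low-count filter were not tested.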

Other observations

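Heat shock genes went different ways in the mice over all cells. Hspa1a, an inducible HSP70 chaperone, stood at 220.0, 197 and 587 CPM in kidney and 107, 836 and 1543 in spleen (WT1, WT2, WT3), a kidney minus spleen difference in log2(CPM + 1) of 1.03, -2.08 and -1.39. It was not called (adjusted p = 0.3, edgeR). The difference had the same signs in the other copy, Hspa1b (0.78, -2.28 and -1.76), which shares most of its sequence with Hspa1a so that reads of the pair may be split by chance, in the cochaperone Dnajb1 (1.01, -1.86 and -1.22) and in Hsph1 (1.09, -1.08 and -0.87). WT1 was higher in kidney and WT2 and WT3 in spleen. Within the 5 clusters tested one by one, Hspa1a (-2.29 to -1.24), Hspa1b (-2.39 to -1.47) and Dnajb1 (-1.88 to -1.16) were called higher in spleen in 5 of 5 and Hsph1 in 3 of 5. These genes were singled out after their values were seen. The small heat shock protein Hspb1 was called higher in spleen, at 0.323, 0.172 and 3.11 CPM in kidney and 2.15, 7.58 and 6.69 in spleen.

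Inflammatory chemokine receptors held 4 called genes of 10. Ccr6, the receptor for CCL20 found on interleukin-17 producing cells, stood at 1.78, 0.345 and 0.849 CPM in kidney and 4.93, 0.919 and 6.18 in spleen. Ccr8, a receptor of tissue regulatory T cells, was higher in kidney at 52.8, 2.41 and 6.51 against 29.8, 0.459 and 3.91 CPM, and so were Ccr3 and Cx3cr1, with log2 fold changes of 1.29 and 0.70. None of the 11 measured receptors of the list was called without WT2.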
